A study of Mus musculus with 8 samples.

Results

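RNA of sorted muscle stem cells (MuSCs) was compared between mice fed a vitamin A-free (VA-free) diet and mice fed control chow, and the transcripts of 10 genes of the Notch pathway are described here. They were chosen by name and not by a threshold, but with earlier results of these data known. They are the receptors Notch1, Notch2 and Notch3, the ligands Dll1, Jag1 and Jag2, the DNA-binding mediator Rbpj and the target genes Hes1, Hey1 and Heyl. These are 10 of the 17997 genes that passed the expression filter. All cells came from male Pax7-nTnG mice aged 5 to 6 months, which carry a tamoxifen-inducible Cre recombinase under the Pax7 promoter and a nuclear reporter that turns from tdTomato to GFP upon recombination. Both diets lasted 8 weeks, every mouse received tamoxifen, and GFP-positive cells of the quadriceps and gastrocnemius muscles were sorted into lysis reagent. The VA-free diet was represented by 3 mice in 4 libraries (1B, 2A, 3A and 3B) and control chow by 2 mice in 4 libraries (1A, 1B, 2A and 2B), where the number names the mouse and the letter a portion of its RNA, so that the letters are technical replicates.

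Notch receptors are membrane proteins that are activated by ligands of the Delta-like and Jagged families on a neighboring cell. Ligand binding exposes the receptor to ADAM proteases and then to the γ-secretase complex, and the freed intracellular domain enters the nucleus, joins the DNA-binding protein RBPJ and switches on genes of the Hes and Hey families of transcriptional repressors. In resting muscle, Notch activity in MuSCs is known to hold them in quiescence, and loss of Rbpj from these cells lets them differentiate without dividing.

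The libraries held between 44831232 and 88650428 estimated counts (median 52290679), and the lowest count of any of the 10 genes in any library was 288, so that counting error was small beside the spread between libraries. The control libraries 2A and 2B, labelled as portions of 1 mouse, stood far apart, with a root mean square difference of 0.871 in log2(CPM + 1) over the tested genes. The same measure was 0.459 between control 1A and 1B and 0.229 between VA-free 3A and 3B. Control 2B was closer to the libraries of the other control mouse (0.451 to 1A, 0.493 to 1B) than to control 2A. It was also closer to every VA-free library (0.762 to 0.809) than to control 2A. Whether 2A and 2B come from 1 mouse, as labelled, was not tested. Among the 17997 genes, 3403 were higher on the VA-free diet and 4056 were lower, with an adjusted p-value under 0.05 from edgeR's quasi-likelihood test over the 5 mice.

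Of the 10 Notch genes, 5 were higher on the VA-free diet (Notch1, Notch2, Notch3, Rbpj and Heyl), against 18.9% of all tested genes. Of the same 10, 1 (Jag2) was lower, against 22.5% of all tested genes, and the other 4 (Hes1, Hey1, Dll1 and Jag1) did not pass the threshold. The median log2 fold change, VA-free over control, was 0.56 for the 10 genes and 0.00 for all genes tested. Without control library 2B 2 of the 10 were called higher (median 0.48), against 9.08% of all genes in that fit. With the trend along transcript length removed 4 were higher and 2 lower (median 0.28), against 11.9% and 18.1% of all genes. With scaling to MuSC markers 2 were higher and 5 lower (median -0.54), where 1.68% of all genes were higher, 60.9% were lower and the median of all genes was -1.10. Between the diets, the values of the mice did not overlap for 7 of the 10 genes, against 63.3% of all genes tested. The separate libraries did not overlap for 4 of them (the receptors and Heyl), against 41.3% of all genes tested. No ligand was among the genes that were higher.

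**Figure D1:**
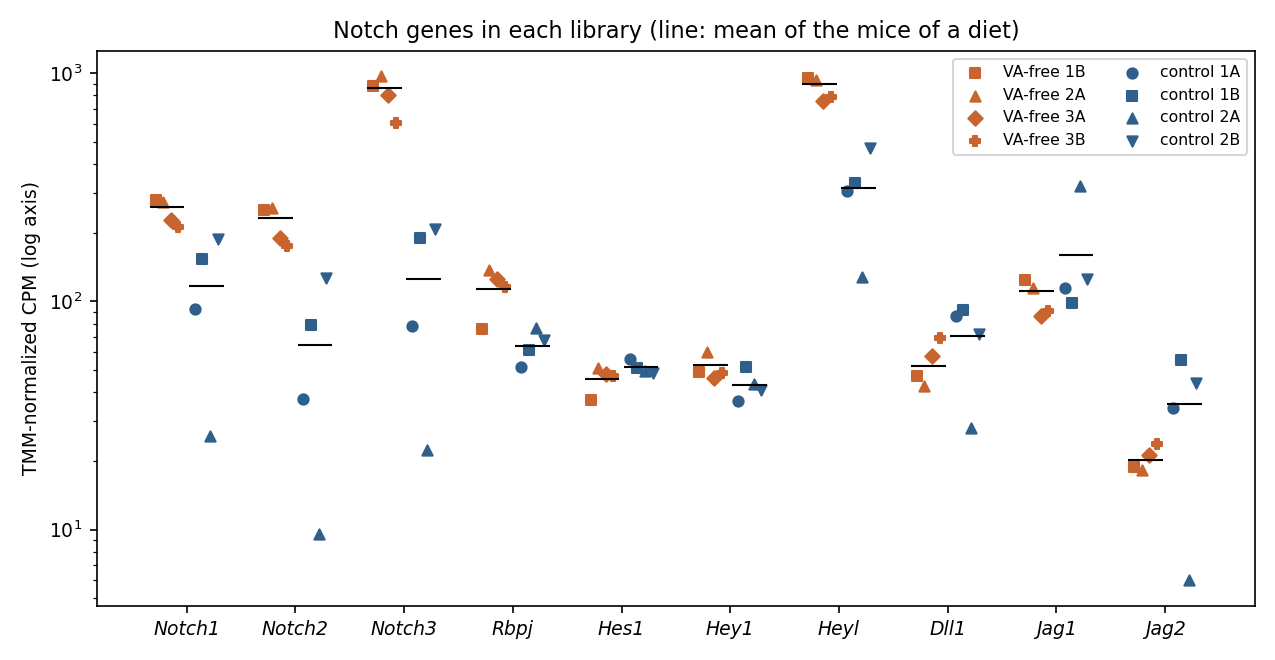
TMM-normalized CPM (log axis) of each Notch gene in each library, orange for the VA-free diet and blue for control, with a line at the mean of the mice of a diet. For Notch1, Notch2, Notch3 and Heyl every orange point lies above every blue point, and control 2A, the blue upward triangle, lies far below control 2B for these genes and above it for Jag1.

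The stretches of DNA just upstream of 1 RefSeq start site each of the receptors and of Rbpj are shown because these 4 genes were higher together. They are taken from a set of RefSeq promoters of GRCm38.p6 that held 7 of the 10 genes, with 9 start sites in all. Each is written 5′ to 3′ on the strand of its gene and ends at the annotated exon next to that start site or, for Notch3, at the start site itself, and capitals mark TGGGAA, the core that RBPJ binds, where it occurs. The Notch1 stretch is chr2:26503825-26504072 on the minus strand, the Notch2 stretch chr3:98013288-98013526 on the plus strand, the Notch3 stretch chr17:32166891-32167140 on the minus strand and the Rbpj stretch chr5:53590096-53590213 on the plus strand. The start sites used for Notch1 and Rbpj lie inside the gene bounds of GENCODE, which begin further upstream.
Notch1: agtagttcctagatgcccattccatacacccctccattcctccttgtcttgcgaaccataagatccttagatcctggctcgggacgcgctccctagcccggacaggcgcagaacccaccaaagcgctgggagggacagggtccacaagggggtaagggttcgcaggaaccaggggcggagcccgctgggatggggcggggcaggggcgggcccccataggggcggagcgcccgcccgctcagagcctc
Notch2: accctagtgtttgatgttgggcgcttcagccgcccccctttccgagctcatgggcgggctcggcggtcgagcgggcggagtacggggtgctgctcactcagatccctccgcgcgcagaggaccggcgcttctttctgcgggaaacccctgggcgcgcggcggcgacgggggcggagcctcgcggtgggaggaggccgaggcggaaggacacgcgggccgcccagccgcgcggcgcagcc
Notch3: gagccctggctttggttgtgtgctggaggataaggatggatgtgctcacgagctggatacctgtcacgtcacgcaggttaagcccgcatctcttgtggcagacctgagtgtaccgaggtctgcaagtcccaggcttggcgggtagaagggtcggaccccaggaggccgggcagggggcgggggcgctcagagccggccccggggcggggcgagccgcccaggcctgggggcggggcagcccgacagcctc
Rbpj: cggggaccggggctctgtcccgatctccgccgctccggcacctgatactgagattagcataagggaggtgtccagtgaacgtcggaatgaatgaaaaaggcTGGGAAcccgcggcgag
The letters TGGGAA, searched on both strands in the 250 bases before the RefSeq start, were found at 2 of the 9 start sites, both of Rbpj and with 1 match in the overlap of their windows, and in 21.6% of the 32851 mouse promoters of the same length. The letters AGGTCA, the core of retinoic acid receptor sites, were found on either strand at 1 of the 9, a start site of Dll1, and in 14% of all promoters. None of the receptor stretches printed above held either motif. The target genes Hes1, Hey1 and Heyl were not in the promoter set, so their promoters were not searched.

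Notch3 (chromosome 17 of GRCm38, 32120820 to 32166852), the receptor with the largest difference, had the highest level of the receptors per transcript length. Its level was 877, 973, 805 and 607 CPM on the VA-free diet (1B, 2A, 3A, 3B), and 78.2, 189, 22.3 and 208 CPM on control chow (1A, 1B, 2A, 2B). Every VA-free library lay above every control library. In CPM, Notch3 was below Notch1 in control 1A (93 CPM for Notch1) and control 2A (25.7 CPM for Notch1). Averaged per mouse, Notch3 stood at 861 ± 136 CPM (n = 3, SD) against 125 ± 12.7 CPM (n = 2, SD). Its log2 fold change was 2.78 with a standard error of 0.19 (adjusted p = 0.000236, edgeR), or 6.87-fold. Notch3 passed the threshold under each of the 28 alternatives, with log2 fold changes between 1.69 and 4.14.

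Notch2 (chromosome 3, 98013527 to 98150361) was at 252, 256, 189 and 175 CPM on the VA-free diet (1B, 2A, 3A, 3B) and at 37.4, 79.2, 9.59 and 127 CPM on control chow (1A, 1B, 2A, 2B). The groups did not overlap, and the control libraries spread more widely than those of the VA-free diet. The mouse averages, 233 ± 42.1 CPM (n = 3, SD) against 64.2 ± 7.49 CPM (n = 2, SD), gave a fold change of 1.86 on the log2 scale with a standard error of 0.19 (adjusted p = 0.000588, edgeR). With control 2B left out it was 2.75 but the call was lost (adjusted p = 0.0516), the only one of the 28 alternatives under which it was.

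Notch1 (chromosome 2, 26457903 to 26516663), the best studied receptor of the family, was at 278, 272, 228 and 213 CPM on the VA-free diet (1B, 2A, 3A, 3B). On control chow (1A, 1B, 2A, 2B) it was at 93, 154, 25.7 and 188 CPM, so that the highest control library came close to the lowest of the VA-free diet. The log2 fold change of Notch1 was 1.15 with a standard error of 0.15 (adjusted p = 0.00138, edgeR), from 260 ± 32.3 CPM (n = 3, SD) against 117 ± 12.5 CPM (n = 2, SD). It was 0.73 when control 2A and 1.76 when control 2B was left out, and the call was lost in the second case (adjusted p = 0.1) and with edgeR on the 8 libraries as separate samples (adjusted p = 0.097), whereas DESeq2 on the 8 libraries with length offsets, which differs in both the tool and the offsets, kept it (1.39, adjusted p = 0.0154). Of 28 alternatives, 1 more lost the call, the scaling to MuSC markers (0.06).

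The receptors also differed between libraries labelled as technical replicates of 1 animal. Control 2B was above control 2A by 7.32-fold for Notch1, 13.3-fold for Notch2 and 9.29-fold for Notch3, which is more than the differences between the diets (2.23-fold, 3.63-fold and 6.87-fold). Adding the portions of a mouse hides this spread, and the SD over mice given above does not contain it. With 1 library per mouse in place of the sums (the first letter, thus control 1A and 2A, the lower of each control mouse for these genes) the log2 fold change was 2.13 for Notch1, 3.30 for Notch2 and 4.14 for Notch3. With the last letter (control 1B and 2B), run after the data were seen, it was 0.55, 1.12 and 2.03, and all 6 values were past the threshold. In VA-free mouse 3 the portions were close, with log2 ratios of 3A over 3B of 0.10, 0.11 and 0.41 for Notch1, Notch2 and Notch3. In control mouse 1 the log2 ratios of 1A over 1B were -0.72, -1.06 and -1.26.

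Heyl (chromosome 4, 123233556 to 123249875), a Hey family repressor that Notch activates in MuSCs, had the highest mean of the 10 genes per transcript length on both diets. In control 2A it was below Jag1 and Hes1 by this measure. It stood at 955, 937, 759 and 785 CPM on the VA-free diet (1B, 2A, 3A, 3B) and at 306, 331, 128 and 469 CPM on control chow (1A, 1B, 2A, 2B). All VA-free libraries were higher than all control libraries. The mouse averages of 900 ± 103 CPM (n = 3, SD) against 313 ± 21.7 CPM (n = 2, SD) gave a fold change of 1.52 on the log2 scale with a standard error of 0.15 (adjusted p = 0.000498, edgeR), which was 1.17 when control 2A and 1.96 when control 2B was left out and kept its call in both fits. Scaled to the MuSC markers it was 0.43 and lost the call (adjusted p = 0.0675, edgeR), as it did under no other of the alternatives run.

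Hes1 (chromosome 16, 30064384 to 30067796) and Hey1 (chromosome 3, 8663359 to 8667256), the other target genes, did not pass the threshold in the fit over 5 mice. Hes1 was at 37, 51.3, 48.3 and 46.9 CPM on the VA-free diet (1B, 2A, 3A, 3B) and between 48.6 and 55.9 CPM in the control libraries, which overlapped. Its fold change of -0.17 on the log2 scale with a standard error of 0.16 (adjusted p = 0.448, edgeR) changed sign with TPM or with the length trend removed. Hey1 was between 46.4 and 60.1 CPM in the VA-free libraries and between 36.6 and 51.5 CPM in the control libraries, again with overlap. The log2 fold change of Hey1 was 0.30 with a standard error of 0.14 (adjusted p = 0.132, edgeR), and it passed the threshold with TPM (0.76 with a pseudocount of 1) and without control library 1B (0.44). Control libraries 2A and 2B, so far apart for the receptors and Heyl, differed little for these 2 genes, with log2 ratios of 0.03 for Hes1 and 0.09 for Hey1. Among longer members the ratio of 2A over 2B was also small for Rbpj (0.18, 5108 bases) and was 1.34 for Jag1 (5586 bases).

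Rbpj (chromosome 5, 53466152 to 53657362), the DNA-binding partner through which the receptors act, was at 75.4, 138, 126 and 116 CPM on the VA-free diet (1B, 2A, 3A, 3B) and at 51.7, 61.1, 76.5 and 67.6 CPM on control chow (1A, 1B, 2A, 2B). VA-free 1B lay just under control 2A, and the other VA-free libraries were above all controls. Its log2 fold change was 0.82 with a standard error of 0.25 (adjusted p = 0.0357, edgeR), from 113 ± 31.7 CPM (n = 3, SD) against 63.7 ± 8 CPM (n = 2, SD). The call was the least stable of the rises, lost under 10 of 29 alternatives, including those that left out VA-free mouse 2 (0.65) or 3 (0.75), control mouse 1 (0.69) or 2 (0.95), or control library 1A (0.76) or 2B (0.72).

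Rbpj was also the only member whose estimated counts were shared between several long transcripts. Rbpj-203 held between 35.9% and 60.3% of its counts over the 8 libraries, whereas the leading transcript of each of the other 9 genes held at least 82.2% in each library. Rbpj-202, a protein-coding transcript, held 23.5%, 33.8% and 18.5% in VA-free 2A, 3A and 3B, 2 counts in VA-free 1B and 0 in the 4 control libraries. VA-free 1B, the library with the lowest Rbpj of its diet, was thus like the controls in this transcript. An annotated processed pseudogene, Rbpj-ps3 on chromosome 6, received 2304 counts in VA-free 1B and between 514 and 1434 in the other libraries, so the division of reads between gene and pseudogene is uncertain. With Rbpj-ps3 added, the log2 fold change of Rbpj was 0.62, and with Rbpj-203 alone it was 0.56. Both kept the call, and both were chosen after the data were seen.

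Of the 3 ligands among the members, Jag2 alone passed the threshold in the fit over 5 mice. Jag2 (chromosome 12, 112907819 to 112929776) was at 18.8, 18.3, 21.3 and 23.8 CPM on the VA-free diet (1B, 2A, 3A, 3B) and at 34.2, 55.4, 5.99 and 44 CPM on control chow (1A, 1B, 2A, 2B). Control 1A, 1B and 2B were above, and control 2A below, every VA-free library. The fold change of -0.81 on the log2 scale with a standard error of 0.25 (adjusted p = 0.0392, edgeR) rested on 20.2 ± 2.42 CPM (n = 3, SD) against 35.4 ± 14.4 CPM (n = 2, SD), and the call was lost under 13 of 28 alternatives. Among these were those that left out VA-free mouse 1 (-0.78), 2 (-0.75) or 3 (-0.92), control mouse 1 (-0.32) or control library 1A (-1.03) or 2B (-0.37).

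Dll1 (chromosome 17, 15367354 to 15376872) was at 47, 42.8, 57.5 and 69.4 CPM on the VA-free diet (1B, 2A, 3A, 3B) and at 86.2, 91.7, 27.9 and 71.8 CPM in the control libraries in the order 1A, 1B, 2A and 2B. Without control library 2A all VA-free libraries would lie below the controls, and with it the groups overlap. The log2 fold change of Dll1 was -0.44 with a standard error of 0.28 (adjusted p = 0.254, edgeR). It passed the threshold without control library 2A (-0.66, adjusted p = 0.0317) and without control mouse 2 (-0.83), and was 0.07 without control mouse 1 and 0.02 with TPM.

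Jag1 (chromosome 2, 137081456 to 137116644) was at 124, 115, 86.4 and 90.8 CPM on the VA-free diet (1B, 2A, 3A, 3B) and at 114, 98, 319 and 125 CPM on control chow (1A, 1B, 2A, 2B). Here control 2A was the high library, 2.54-fold above control 2B, and the other libraries of both diets covered the same range. Its log2 fold change was -0.53 with a standard error of 0.27 (adjusted p = 0.165, edgeR), which was -0.10 without control library 2A and -0.92, past the threshold, without control mouse 1.

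**Figure D2:**
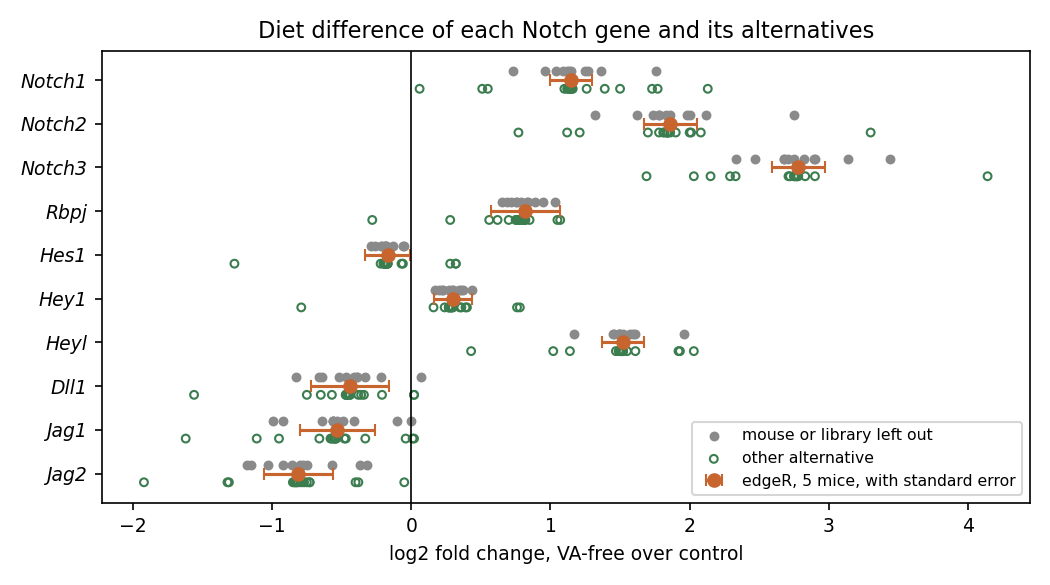
Log2 fold change (VA-free over control) of each Notch gene from edgeR over 5 mice with its standard error (orange), without each mouse or library in turn (gray) and under the other alternatives (green). Notch3 stays between 1.69 and 4.14, whereas the points of Hes1, Hey1, Dll1 and Rbpj fall on both sides of 0, and those of Jag1 reach 0.02.

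Compared per transcript length, as TPM, the order of the 10 genes differed between the diets. On the VA-free diet Heyl led with 370 ± 51.8 TPM (SD, n = 3), followed by Notch3 with 237 ± 45.5 TPM, and neither overlapped its next neighbor in that order. From Notch1 (72.8 ± 8.41 TPM) through Hes1, Rbpj, Notch2, Hey1 and Jag1 to Dll1 (33.6 ± 5.03 TPM), each gene overlapped the next over the 3 mice. Jag2 came last with 13.7 ± 2.28 TPM and stood apart. On control chow Heyl (96.8 ± 2.04 TPM, SD, n = 2) and Hes1 (54.6 ± 4.2 TPM) led without overlap between the mouse averages. Jag1, Notch3, Dll1, Hey1 and Rbpj (25.2 ± 1.95 TPM) followed as a chain of overlapping neighbors. Notch1 (21.1 ± 0.396 TPM) overlapped Jag2 (18.6 ± 7.4 TPM), and Notch2 (10.9 ± 0.735 TPM) was lowest. Notch3 moved from the fourth place on control chow to the second on the VA-free diet, and Notch2 from the last to the sixth. These orders and SDs rest on mouse averages and do not hold in every library. In control 2A Jag1 (68.3 TPM) was above Hes1 (46.1 TPM) and Heyl (34.2 TPM). Notch1 was at 3.28 TPM in control 2A and at 39.6 TPM in control 2B.

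The makeup of the receptor pool was computed from the same TPM values, with Notch4 added. Notch3 held 65.9% ± 1.76 (SD, n = 3 mice) of the summed receptor TPM on the VA-free diet and 48.4% ± 2.77 (SD, n = 2) on control chow, with no overlap between libraries (61.6% to 67.7% against 45.6% to 54.4%). Notch1 held 20.5% ± 1.33 and 29.6% ± 2.57, also without overlap, and Notch2 held 13.1% ± 0.524 and 15.3% ± 2.07, with overlap. Notch4, a receptor of endothelial cells, held 0.515% ± 0.0554 and 6.61% ± 1.87. Among the target genes, Heyl held between 73.6% and 80.4% of the sum with Hes1 and Hey1 in the VA-free libraries and between 33.3% and 65% in the control libraries. In control 2A, where the receptor levels were lowest, Notch3 still held 54.4% of their sum. No test was run on these shares.

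**Figure D3:**
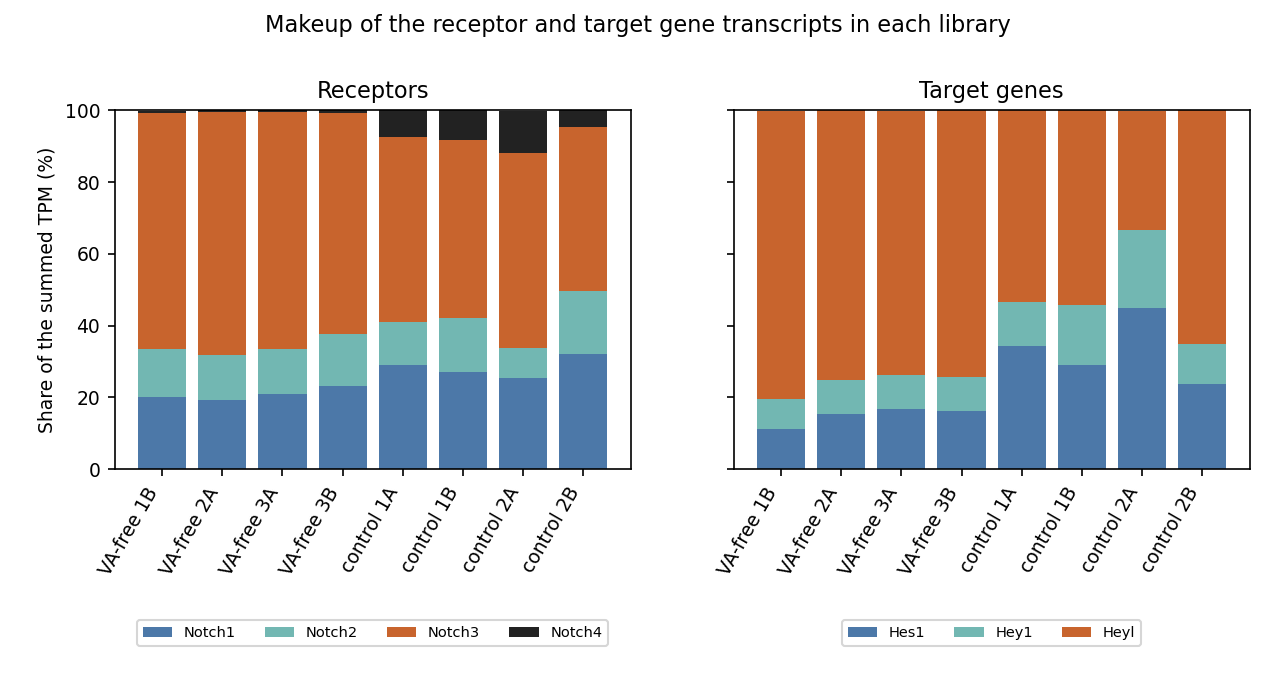
Share of the summed TPM (%) held by each receptor (left) and by each of the target genes Hes1, Hey1 and Heyl (right) in each library. Notch3 takes 61.6% to 67.7% of the receptor sum in the VA-free libraries and 45.6% to 54.4% in the control libraries, and Heyl takes its lowest share, 33.3%, in control 2A.

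Genes with long transcripts tended to be higher on the VA-free diet, and the receptors are among the longest. The median log2 fold change was -0.72 in the 2301 genes with transcripts up to 1000 bases and 0.57 in the 435 genes over 8000 bases. In the length classes of the 5 members that were higher, 40.2% to 43% of all genes were higher, against 18.9% over all lengths. The count-weighted transcript length was 9221 bases for Notch1, 10160 for Notch2, 7872 for Notch3 and 4530 for Heyl, against 1421 for Hes1 and 2371 for Hey1. Within their own length class, 98.9% of genes had a lower log2 fold change than Notch3, 94.3% a lower one than Notch2, 92.4% a lower one than Heyl and 78.2% a lower one than Notch1. For Rbpj, Hey1 and Hes1 this share was 63.7%, 66.1% and 63%, somewhat above the middle of their class. The ligands were in the lower part of theirs, with 20.7% for Dll1, 15.2% for Jag1 and 12.9% for Jag2.

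With the trend of each mouse with length removed, Notch3 (2.15), Notch2 (1.21), Notch1 (0.51) and Heyl (1.02) kept their calls, while Rbpj (0.28) lost its call and Jag1 (-1.11) passed the threshold. The control portions 2A and 2B also differed along length, with a median log2 ratio of 2A over 2B of 0.10 in genes up to 1000 bases and -0.29 in those over 8000 bases, against -2.82, -3.60 and -3.16 for Notch1, Notch2 and Notch3. The part of RNA quality or cDNA synthesis in the length trend was not tested.

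**Figure D4:**
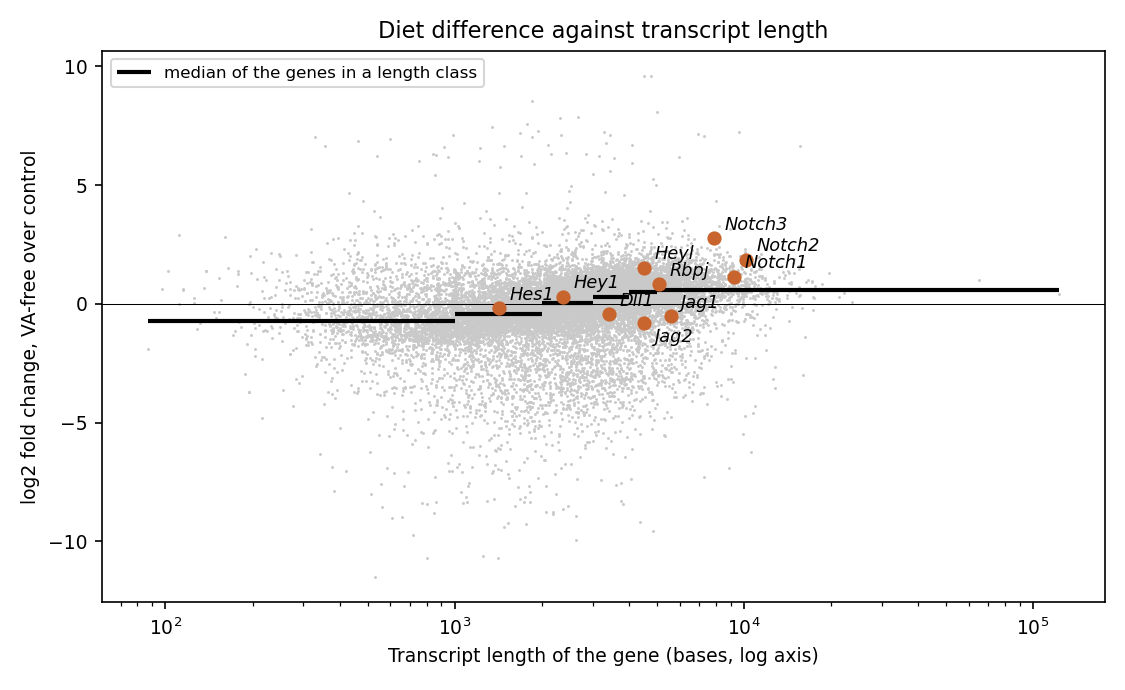
Log2 fold change (VA-free over control) against transcript length (bases, log axis) for the 17997 tested genes (gray), with the median of each length class (black bars) and the 10 Notch genes (orange). The receptors and Heyl lie above the median of their class and the ligands below it, and the class medians rise from -0.72 to 0.60.

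Markers of MuSCs and of other cell types moved with the diet beside these genes. All 12 MuSC markers, Pax7 and Myf5 among them, were higher on the VA-free diet (log2 fold changes 0.69 to 1.70, median 1.15), and their summed level was between 6313 and 7120 CPM in the VA-free libraries and between 2096 and 4039 CPM in the control libraries. All 14 endothelial markers were lower (median -3.55), with sums of 304 to 401 CPM against 1303 to 3619 CPM. Of the pericyte and smooth muscle markers 5 of 9 were lower (median -0.73), with sums of 911 to 1169 CPM against 2740 to 3312 CPM. On the VA-free diet most of this sum was Acta2, at 771 CPM against 990 CPM on control chow, which did not pass the threshold. Schwann cell markers were lower for 7 of 8 (476 to 505 CPM against 1022 to 1305 CPM) and tenocyte markers for 5 of 6 (40.1 to 66.1 CPM against 606 to 1099 CPM). Most of the Schwann cell sum was Pmp22 (460 CPM on the VA-free diet, 717 CPM on control chow), and the list median was -3.74. Markers of fibro-adipogenic progenitors were mixed (5 of 9 lower, 1 higher), with a summed level of 16785 to 19084 CPM against 8669 to 15054 CPM. Most of this sum was Col3a1, at 11222 ± 558 CPM (SD, n = 3) against 4304 ± 777 CPM (SD, n = 2), and Gsn, whereas Pdgfra, Ly6a, Dcn, Lum and Pi16 were lower (log2 fold changes -4.54 to -2.64) and the list median was -2.64. Macrophage markers were lower for 5 of 11 (27.5 to 155 CPM against 197 to 948 CPM), as were myofiber markers (391 to 499 CPM against 488 to 608 CPM). No marker of these lists was at 0 in every library. Pecam1, which defines endothelial cells, was at 30.2 to 44.3 CPM in the VA-free libraries and at 262 to 622 CPM in the control libraries. In these bulk libraries fewer cells of a type and less RNA per cell cannot be told apart, and the part of the cell mixture in the Notch gene differences was not tested.

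The 10 genes were therefore also set against the MuSC markers of the same library, a scale chosen after the data were seen. Divided by the geometric mean of the 12 markers, Notch3 was at 1.53 to 2.78 in the VA-free libraries and 0.201 to 1.07 in the control libraries and did not overlap. Notch1 was at 0.538 to 0.776 against 0.232 to 0.872, and Notch2, Heyl, Rbpj and Jag2 overlapped as well. Hes1 (0.103 to 0.147 against 0.22 to 0.448), Hey1, Dll1 and Jag1 (0.218 to 0.343 against 0.555 to 2.87) were lower in every VA-free library on this scale. With edgeR scaled to the same markers, which moves the median of all genes to -1.10, the log2 fold change was 1.69 for Notch3 and 0.77 for Notch2, both past the threshold, 0.43 for Heyl, 0.06 for Notch1 and -0.28 for Rbpj, none of them past it. In the same fit Hes1 (-1.27), Hey1 (-0.79), Dll1 (-1.56), Jag1 (-1.62) and Jag2 (-1.92) were lower past the threshold. Notch3 and Notch2 were thus the members that were higher on both scales.

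**Figure D5:**
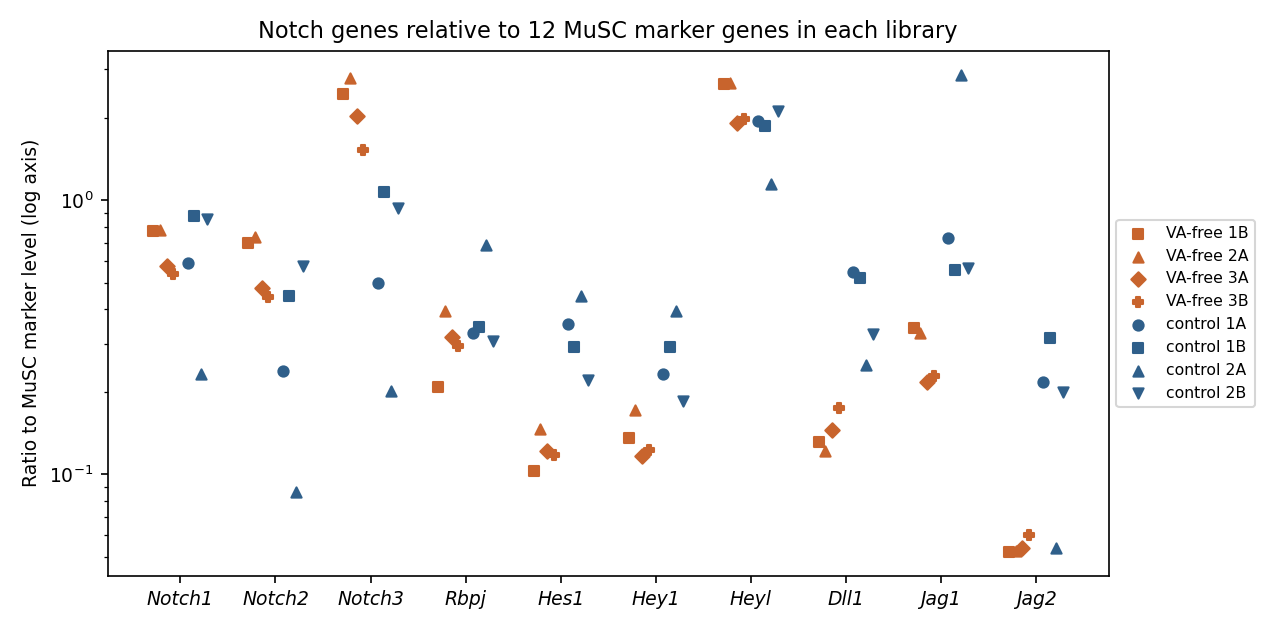
Level of each Notch gene divided by the geometric mean of 12 MuSC marker genes in the same library (ratio, log axis), orange for the VA-free diet and blue for control. Notch3 separates the diets upward (1.53 to 2.78 against 0.201 to 1.07) and Hes1, Hey1, Dll1 and Jag1 separate them downward, while Notch1 overlaps.

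The other genes of the pathway were grouped by role, and 34 of the 72 tested were higher and 15 lower, with a median log2 fold change of 0.51, against 18.9% and 22.5% of all tested genes. Without control library 2B 15 were higher and 10 lower (9.08% and 16.1% of all genes), and with the length trend removed 20 and 12 (11.9% and 18.1%). With scaling to the MuSC markers 4 and 42 were, against 1.68% and 60.9% of all genes, and these shares also apply to the counts given by role under this scaling. Of all genes, 12.9% were higher and 17.7% lower with the first library of each mouse, and 16.3% and 20.4% with the last. The shares were 16.3% and 22.6% with edgeR on the 8 libraries, 18% and 21.6% without control library 2A, and 32.2% and 14.7% with log2(TPM + 1). Among the remaining receptors and ligands, 5 of 8 were lower and 1 was higher (median -1.13), and 3 were lower without control library 2B or with the first library of each mouse. Mfap5, a matrix protein that binds Jagged, fell by 5.42 on the log2 scale. It was the most abundant of the 8 on control chow (111 CPM). On the VA-free diet (2.61 CPM) it was below Mfap2 (14.9 CPM). Dll4 (-3.27), an endothelial ligand, Notch4 (-2.13) and Mfap2 (-1.33) were lower too. Notch4 was at 4.08 to 5.03 CPM in the VA-free libraries and at 5.05 to 33.6 CPM in the control libraries, lowest in control 2A, and its call was lost without control library 2B. Named after its values were seen, Dlk1 (-0.94) was the other one that was lower, with its call lost under 10 of 27 alternatives, and Dner, the one that was higher, was at 0.322 to 0.805 CPM in the VA-free libraries and at 0 in 3 of the 4 control libraries.

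Of the glycosyltransferases that modify the receptors, 2 of 5 were lower and 1 higher (median 0.09). The Fringe enzymes Mfng (-3.58) and Lfng (-3.46), which set the preference of a receptor for Delta-like or Jagged ligands, were lower. Both were low on the VA-free diet, with Mfng at 1.31 CPM against 15.9 CPM on control chow and Lfng at 0.746 CPM against 8.16 CPM. Pofut1 (0.53), which adds the first fucose, was higher, with its call lost under 8 of 27 alternatives. Poglut1 (0.10), the most abundant, did not pass the threshold. Without control library 2B 0 of the 5 were higher, and with scaling to the MuSC markers all 5 were lower (median -1.01). Of the genes for receptor cleavage 6 of 10 were higher and 1 lower (median 0.36). Furin (1.27), which cuts the receptor on its way to the surface, and the γ-secretase subunits Aph1a (0.76) and Ncstn (0.37, adjusted p = 0.0496, edgeR) were higher, with calls lost under 6 (Furin), 6 (Aph1a) and 15 (Ncstn) of 27 alternatives, while Psenen (-1.49), a small subunit of the same complex, was lower. The count of 6 was 2 without any 1 of the VA-free mice, where 14.2% to 14.9% of all genes were higher. It was 1 with control 1A left out (15.5% of all genes) and 0 with control 2B left out (9.08%). In the fit without 2B, 2 were higher at an unadjusted p under 0.05 (edgeR). The count was 2 with the length trend removed (median 0.13, 11.9% of all genes) or the first library of each mouse (12.9%). With scaling to the MuSC markers 7 were lower.

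Genes of ubiquitination and endocytosis were higher for 9 of 16 and lower for 1 (median 0.65). Neurl1a (2.17), an E3 ligase for ligand endocytosis, and Dtx4 (1.50), a Deltex protein, were higher, as was Nedd4 (0.54), the most abundant, whereas Neurl1b (-1.85) was lower. Without control library 2B 4 of the 16 were higher, and with scaling to the MuSC markers 1 was higher and 8 lower (median -0.45). Of the nuclear cofactors of Rbpj 9 of 17 were higher and 2 lower (median 0.53). The corepressor Tle3 (1.26) and the acetyltransferase Ep300 (1.17) were higher, Ctbp1 (0.14) did not pass the threshold, and Snw1 (-0.70) and Hdac1 (-0.41), named after their values were seen, were lower, and Hdac1 lost its call under 12 of 27 alternatives and was 0.15 with TPM. Of these 17, 5 were higher without control library 2B or with edgeR on the 8 libraries, and 4 with the length trend removed (median 0.24), while 10 were lower with scaling to the MuSC markers.

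Other genes listed as Notch targets were kept in 2 lists. Of 8 tested genes of the first list 4 were lower and the others did not pass the threshold (median -0.42). The lower ones were Nrarp (-2.41), a feedback inhibitor of Notch that is also an endothelial gene, Id1 (-1.67), Hes6 (-0.66) and Bhlhe41 (-0.59). Bhlhe41 was named after its value was seen. Whether Notch acts on these genes in MuSCs was not tested. Nrarp was at 5.71 to 8.32 CPM in the VA-free libraries and at 47.2, 57.1, 10.7 and 33.1 CPM on control chow (1A, 1B, 2A, 2B). The most abundant of this group, Myc (0.48, adjusted p = 0.0527, edgeR), did not pass the threshold, and Hes5 was too low to be tested. Without control library 2B or with the first library of each mouse 1 of the 8 was lower, with TPM or the length trend removed 2, and with scaling to the MuSC markers 7.

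The list of genes tied to Notch in MuSCs was higher for all 8 (median 1.21), against 18.9% of all tested genes. In the length classes over 4000 bases, which hold the collagen genes of this list and Pax7, 40.2% to 43% of all genes were higher. With the length trend removed 6 of the 8 were higher (median 0.85), against 11.9% of all genes. It holds the collagen V genes Col5a3 (3.48), Col5a1 (2.40) and Col5a2 (1.30) and the calcitonin receptor gene Calcr (1.27), and collagen V is known as a ligand of that receptor in MuSCs. The others are Col6a1 (1.15), Col6a2 (0.74), Pax7 (0.76) and Myod1 (0.82), a myogenic factor that Notch is known to repress. Calcr and Pax7 also stand among the 12 MuSC markers above. Without control library 2A 6 of the 8 were called and without control library 2B or with the last library of each mouse 5, and with scaling to the MuSC markers 2 were called higher (Col5a3 and Col5a1) with a list median of 0.10.

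The genes closest to a member in their course over the 8 libraries were found by the root mean square difference of centered log2(CPM + 1), among 9598 genes whose mean level reached 10 CPM. The closest to Notch3, the most abundant receptor per length, were Hr (0.210), Rap1gap2 (0.303) and Pcnx3 (0.324). Those closest to Heyl were Larp1 (0.086), Vav2 (0.109) and Dtx4 (0.117), and those closest to Jag1, the ligand with the highest mean TPM, were Ptges2 (0.110), Ociad2 (0.154) and Stxbp3 (0.159). The mean of Jag1 rests on control 2A, and Dll1 was above Jag1 in TPM in 5 of 8 libraries. The libraries share animals and depth differences, so this is a description of their course only.

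Exons of 4 of the 10 genes overlap other annotated genes, whose transcripts were not among those quantified. Notch1 overlaps 0610009E02Rik and Gm13568, Notch3 overlaps Gm17276 and Dll1 overlaps A930024N18Rik on the opposite strand, and Notch2 overlaps Gm42820 on its own strand, by up to 964 bases of an exon. The SMART-Seq v4 and Nextera XT preparation keeps no strand, so reads from these genes cannot be told apart from those of the members.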

How the data were processed

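Full-length cDNA of sorted MuSCs was made with a SMART-Seq v4 kit and turned into Nextera XT libraries. The authors estimated transcript counts by pseudo-alignment with kallisto 0.46.2 (per the submitters' processing notes) to Ensembl transcripts of GRCm38 and deposited, per library, these estimated counts without normalization and TPM, which are scaled by effective length and keep no depth.

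Estimated counts were summed per gene through GENCODE vM21, added over the portions A and B of a mouse and rounded. Between 0.647% and 0.756% of a library's counts lay on transcripts without a gene and were left out. The 5 mice were compared with edgeR 4.0.16 (TMM, filterByExpr, quasi-likelihood test, Benjamini-Hochberg adjustment, threshold 0.05) in place of DESeq2, which the study used. DESeq2 was run as an alternative on the mice and on the libraries. The standard error is the log2 fold change divided by the square root of F. Values are TMM-normalized CPM unless stated.

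The Notch genes and all lists were chosen with earlier results of these data known. Per role, the text names the most abundant gene by TPM and up to 3 genes past the threshold with the largest change and a mean of at least 1 CPM, and for likeness the 3 nearest genes. Of the genes this rule selects, 1 is not reported here. Of the alternatives, 25 were planned (other scalings, filters, DESeq2 1.42.0, limma-voom of limma 3.58.1, treatment of portions, length corrections, TPM, replicate block, each mouse or library left out) and 4 were added after seeing the data. On simulated counts with 200 changed genes, edgeR called 130 of them and 7 unchanged genes of 17596. With 2 control mice, the spread on control chow rests on 1 difference between animals.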

Additional observations from a re-analysis of the deposited data

Results flagged for a closer look

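Each diet's 4 libraries were searched for an outlying library, for each of the 10 Notch genes (20 groups). The gap of a library to its nearest neighbor, divided by the range, had to pass the critical value of Dixon's outlier test for 4 values. Gaps that made up most of the range but stayed under this value were not counted. Of the 20 groups, 1 met this criterion: Jag1 was at 319 CPM in control 2A, with a gap of 0.876 of the range of the control libraries. Chance alone gives about 1 such case in 20 groups, and the libraries of a mouse are not independent. The part of RNA quality or cell mixture in this library was not tested.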

How the results depend on the processing

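Among 389 comparisons of the 10 fold changes and 4 counts with an alternative, 329 kept direction and call (counts within 1.5 times). Causes were not tested unless stated. With limma-voom Jag2 was -0.73. With DESeq2 on 8 libraries and length offsets Jag2 was -0.75. With edgeR on 8 libraries Notch1 was 1.10 and Jag2 -0.77. With the first library of each mouse 2156 genes were called higher, Notch1 was 2.13, Notch2 3.30, Notch3 4.14 and Heyl 2.03, Rbpj was 0.85 and Jag2 -0.05. With length offsets Rbpj was 0.76 and Jag2 -0.73. With the length trend removed 2141 genes and 20 other pathway genes were called higher, Rbpj was 0.28, Hes1 0.28, Jag1 -1.11, Poglut1 -0.06, Pofut1 -0.02 and Nedd4 -0.03. With log2(TPM + 1) 5799 genes were higher and 2637 lower (68.7% of calls higher, against 45.6%), the median of all genes was 0.19, Hes1 was 0.32, Hey1 0.76, Dll1 0.02, Jag1 0.01, Jag2 -0.38 and Hdac1 0.15. With a pseudocount of 0.1 the counts were 5867 and 2631 (69% higher), the median was 0.35, Hes1 was 0.32, Hey1 0.78, Dll1 0.02, Jag1 0.02, Jag2 -0.40 and Hdac1 0.15. With scaling to 12 MuSC markers, which by its construction lowers every gene, 302 genes were higher and 10968 lower, 4 and 42 among the other pathway genes; Notch1 was 0.06, Rbpj -0.28, Hes1 -1.27, Hey1 -0.79, Heyl 0.43, Dll1 -1.56, Jag1 -1.62, Poglut1 -1.0, Pofut1 -0.57, Ncstn -0.74, Aph1a -0.34, Nedd4 -0.56, Ctbp1 -0.97 and Myc -0.62. Of the 30 called pathway genes followed singly, 11 kept their call under every alternative run.

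Leaving out each mouse or library gave 1613 to 3678 genes called higher and 15 to 38 other pathway genes called higher, the lowest when control 2B was left out. The log2 fold change ranged from 0.73 to 1.76 for Notch1, 1.32 to 2.75 for Notch2, 2.33 to 3.44 for Notch3, 0.65 to 1.03 for Rbpj, -0.29 to -0.05 for Hes1, 0.17 to 0.44 for Hey1, 1.17 to 1.96 for Heyl, -0.83 to 0.07 for Dll1, -0.99 to 0.00 for Jag1 and -1.18 to -0.32 for Jag2. It ranged from -0.05 to 0.16 for Poglut1 and from -0.04 to 0.33 for Ctbp1. Where 1 control mouse remained, it was assumed to vary like the mice of the other diet.

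The diets share the replicate numbers 1 and 2, which were not taken as pairs. The deviations of same-numbered mice from the mean of their diet had correlations of -0.0211 and 0.00643 over genes. The deviations of 2 control mice mirror each other, so these correlations cannot decide whether same-numbered mice belong together. With a replicate block 2339 genes were higher (13%) and 2903 lower (16.1%), and 2 in place of 6 cleavage genes were higher. The calls of the 10 Notch genes were unchanged with the block (Notch3 2.90, Notch2 2.01, Notch1 1.26, Heyl 1.61, Rbpj 0.70, Jag2 -0.85). Depth limited none of the 10 genes, since each had at least 288 counts in every library.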

Other observations

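Short transcripts annotated as retained introns took shares of 3 members that did not overlap between the diets, about as often as over all tested genes. Of the members' 12 retained-intron transcripts with at least 100 counts in all, 3 (25%) did not overlap, against 23% of the 11055 such transcripts of all tested genes. Notch3-203 held 1.53%, 1.26%, 0.922% and 1.24% of the Notch3 counts on the VA-free diet (1B, 2A, 3A, 3B) and 7.07%, 3.36%, 8.72% and 3.64% on control chow (1A, 1B, 2A, 2B), without overlap. Its share was highest in the control library of each mouse that had the lower Notch3 level, 1A and 2A. Hes1-203 went the other way, with 2.18% to 2.64% of the Hes1 counts in the VA-free libraries and 0% to 0.872% in the control libraries, on 57 to 76 and 0 to 23 counts. Jag1-202 did so too, with 0.771% to 2.05% of the Jag1 counts against 0.148% to 0.523%, on 38 to 106 and 16 to 23 counts. These shares come from pseudo-alignment to short transcripts that lie within the gene and were not tested.

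Of 12 dissociation and immediate early genes, 2 passed the threshold upward and 2 downward, with a median log2 fold change of -0.04 and overlapping summed levels of 30557 to 36294 CPM in the VA-free libraries and 28383 to 38521 CPM in the control libraries.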
